A study of Homo sapiens with 11 samples.

Results

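The Notch genes described here are 10 members, taken by symbol from the 59087 genes of each deposited count file: the receptors NOTCH1, NOTCH2 and NOTCH3, the ligands JAG1, JAG2 and DLL1, the modifier LFNG and the target genes HES1, HES4 and HEY1. All 10 had a row in every file. They were followed in 11 libraries of polyadenylated RNA from a pair of estrogen receptor-positive breast cancer lines. BT483 is a breast tumour line. T47D-TamR is a T47D derivative made resistant by continuous passage in tamoxifen, an estrogen receptor antagonist, and kept in it. BT483 cells received siNLK type 1, siNLK type 2, control siRNA (siCtrl) with tamoxifen or siCtrl alone, which gave 4 libraries. T47D-TamR cells received the same 4 treatments, and also VX-702, DMSO with tamoxifen or DMSO alone, which gave 3 more. VX-702 is known as a p38 inhibitor and is used in the study against NLK, the nemo-like kinase. All cells were first deprived of estrogen for 48 h. The siRNAs were used at 10 nM for 72 h, and tamoxifen and VX-702 at 0.5 µM. Each of the 11 groups held 1 library, so a p-value below rests on the spread that the groups share in 1 model, and each library came from 1 culture dish.

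Notch signalling passes between touching cells. A Jagged or Delta ligand on one cell binds a Notch receptor on its neighbour, ADAM10 and the gamma-secretase complex cut the receptor, and its freed intracellular domain enters the nucleus, joins the DNA-binding protein RBPJ and a Mastermind coactivator, and turns on HES and HEY repressor genes. LFNG, a Fringe glycosyltransferase, adds sugars to the receptor and changes which ligands activate it. NLK is known to phosphorylate the intracellular domain of NOTCH1, and in the breast Notch signalling is known for its part in luminal cell fate.

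The promoters of HES1 and HES4 are shown because both genes are textbook outputs of the RBPJ complex. Each sequence is the 250 bases before the RefSeq start of the gene, 5′ to 3′ on the gene's own strand, from RefSeq on GRCh38.p14. HES1 lies at chr3:194135898-194136147 on the plus strand and HES4 at chr1:1000098-1000347 on the minus strand. Capitals mark the RBPJ core TGGGAA.
HES1: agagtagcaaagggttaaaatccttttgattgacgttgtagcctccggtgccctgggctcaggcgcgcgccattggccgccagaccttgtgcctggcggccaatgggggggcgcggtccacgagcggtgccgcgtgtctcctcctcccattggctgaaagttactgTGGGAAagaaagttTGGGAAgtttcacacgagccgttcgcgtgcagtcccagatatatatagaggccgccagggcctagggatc
HES4: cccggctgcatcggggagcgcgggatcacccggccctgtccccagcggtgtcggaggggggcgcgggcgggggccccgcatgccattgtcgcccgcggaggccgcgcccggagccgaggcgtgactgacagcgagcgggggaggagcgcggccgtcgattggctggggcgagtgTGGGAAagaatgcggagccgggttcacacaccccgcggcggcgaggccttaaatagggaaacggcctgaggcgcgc
Both strands were searched over 300 bases, those printed and the 50 that follow the start. HES1 held the core at -84 and -70 from its start and HES4 at -76. The core occurred at least once in 24.0% of 35116 promoter windows of 300 bases, and 3.80% held it 2 or more times. The N box CACNAG, a site that HES proteins are known to bind, occurred at -165, -132, -58 and 15 around the HES1 start. Of all promoters 38.0% held at least 1 and 8.95% held 2 or more. It also occurred in the windows of NOTCH1 (-1 and 1), NOTCH2 (-4), NOTCH3 (-211) and 1 entry of LFNG (-53). Of the 10 members, 8 had a promoter entry that was used. LFNG has a pair of entries with 1 core in each, and the windows of NOTCH1, NOTCH2, NOTCH3, JAG1 and JAG2 held no core on either strand. A match of letters is not a measured binding site.

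Total counts ran from 14637083 to 26915863 a library, so that 3 counts, the floor used here, stood for 0.111 to 0.205 CPM, here the count scaled to the library total alone. All CPM values of genes are scaled to that total with its TMM factor. NLK itself was at 5.50 to 12.0 CPM in the 4 knockdown libraries, against 29.6 and 30.0 CPM in the siCtrl libraries. The 8 luminal epithelial markers summed to 13830 to 15910 CPM in BT483 and 5751 to 8258 CPM in T47D-TamR. The 5 endothelial markers stayed at or under 3.50 CPM in sum and the 5 leukocyte markers at or under 2.92 CPM. The 5 basal markers summed to 7.05 to 16.4 CPM in BT483 and 30.9 to 87.0 CPM in T47D-TamR. The 3 mural markers summed to 0.849 to 2.14 CPM in BT483 and 26.6 to 65.4 CPM in T47D-TamR. In T47D-TamR that sum was almost all ACTA2, at 26.6 to 65.3 CPM, and PDGFRB was at 0 in 4 libraries. The 9 fibroblast markers summed to 57.6 to 90.9 CPM in BT483 and 70.8 to 121 CPM in T47D-TamR. Their part in the results was not tested.

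NOTCH3 and HES4 were the most abundant members per transcript length in both lines. NOTCH3 averaged 101 ± 15.4 TPM, an abundance scaled for transcript length, in BT483 and 91.5 ± 15.5 TPM in T47D-TamR (SD over libraries of different treatments, n = 4 and 7), and HES4 averaged 81.5 ± 8.30 TPM in BT483 and 102 ± 8.45 TPM in T47D-TamR. Below them the order differed. BT483 had JAG2 at 57.7 ± 5.78 TPM, NOTCH1 at 43.9 ± 14.7 TPM, LFNG at 42.1 ± 12.5 TPM and HES1 at 37.6 ± 5.66 TPM. In T47D-TamR, HES1 at 68.4 ± 11.7 TPM and NOTCH2 at 52.4 ± 8.05 TPM came next, with JAG2 at 22.7 ± 4.59 TPM. Within BT483, NOTCH1, LFNG and HES1 lay within their SDs of each other, and so did NOTCH3 and HES4 within T47D-TamR. JAG1 averaged 1.71 ± 0.471 TPM in BT483 and 10.8 ± 4.95 TPM in T47D-TamR. DLL1 was at or under 0.315 TPM in every library.

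**Figure D1:**
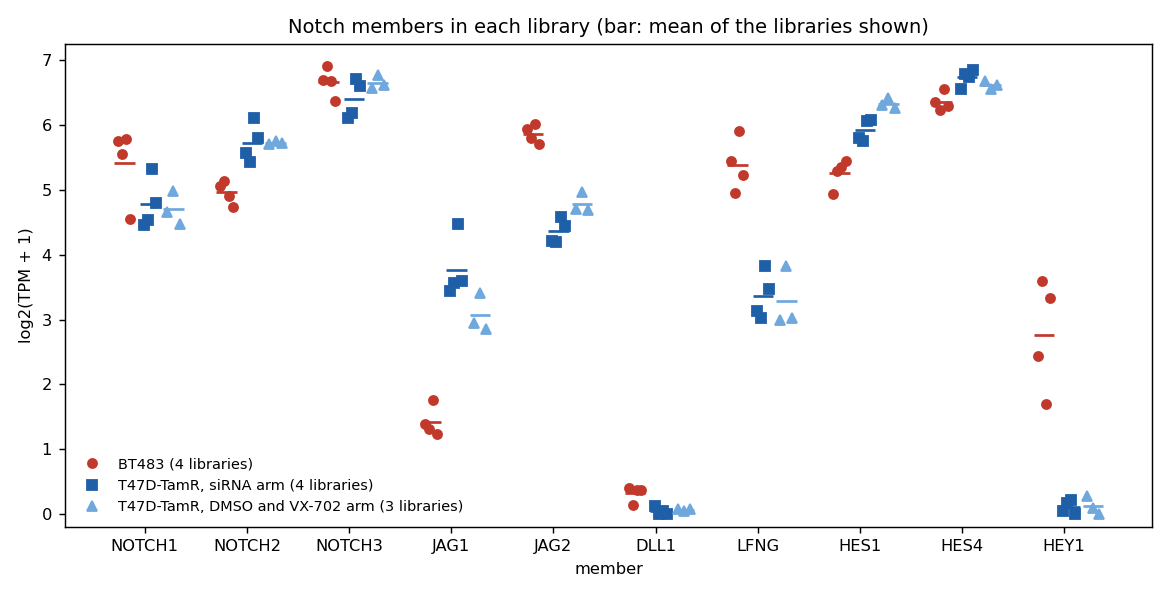
Level of each member in each library, as log2(TPM + 1) from the deposited values, with 1 point a library and a bar at the mean of the libraries shown. JAG2, LFNG and HEY1 lie higher in the 4 BT483 libraries than in the 7 T47D-TamR libraries, and JAG1 and NOTCH2 lie lower.

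The lines differed in members of every role: JAG1, NOTCH2, HES1 and HES4 were lower in BT483, and JAG2, LFNG, HEY1 and DLL1 were higher. Over the 4 conditions run in both lines, 8 of the 10 members passed an adjusted p of 0.05 in edgeR's quasi-likelihood test, 4 higher and 4 lower in BT483. This is set against a background of 70.7% of the 21990 genes tested, 35.6% higher and 35.1% lower, so a share of this size is what most genes showed. The median log2 fold change of the members was 0.29, against 0.0063 over all genes. HEY1 and DLL1 entered the test only through their counts in BT483 and had to differ. The median and the count of 4 higher include both, so neither shows a shift of the members. Of the other 8 members, 6 passed: JAG2 and LFNG as higher, and JAG1, NOTCH2, HES1 and HES4 as lower. In bulk RNA, fewer cells that express a gene and less RNA per cell cannot be told apart, nor can the line and its history of tamoxifen culture.

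Among the receptors, NOTCH2 was lower in BT483. It measured 179, 196, 220 and 214 CPM in the BT483 libraries with tamoxifen, siNLK type 2, siNLK type 1 and siCtrl, against 389, 464, 333 and 350 CPM in the T47D-TamR libraries in the same order of treatment. The groups did not overlap, and the log2 fold change was -0.95 (SE 0.13, adjusted p = 4.36e-05 in edgeR). Part of the NOTCH2 count may be shared with its NOTCH2NL copies. Of these only NOTCH2NLA had a row, with 1 to 18 counts a library. Those counts do not measure the reads that may be shared, so the NOTCH2 value is uncertain by an unknown amount. NOTCH1 measured 83.5 to 195 CPM in BT483 and 84.4 to 143 CPM in the T47D-TamR siRNA libraries, which overlap. Its difference of 0.49 (SE 0.21) did not pass in edgeR (adjusted p = 0.0715). It passed without the BT483 siCtrl + tamoxifen library, at 0.78 (adjusted p = 6.81e-07), and without the T47D-TamR siCtrl + tamoxifen library, at 0.77 (adjusted p = 1.22e-06), within a range of 6.81e-07 to 0.277 over all edgeR, DESeq2 and limma alternatives. With the block by condition, either omission takes the same tamoxifen pair out of the comparison, so these are not separate results. NOTCH3 differed by 0.09 (SE 0.13, edgeR adjusted p = 0.549) and was called only by limma on the deposited normalized log2 TPM, at 0.44 (adjusted p = 0.0401).

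JAG1, the ligand mutated in Alagille syndrome, was the member lowest in BT483 relative to T47D-TamR. It measured 4.36, 7.55, 4.47 and 4.98 CPM in BT483 with tamoxifen, siNLK type 2, siNLK type 1 and siCtrl, against 36.6, 67.6, 40.0 and 34.6 CPM in T47D-TamR. Every BT483 library was far below every T47D-TamR library, with a log2 fold change of -3.08 (SE 0.14, edgeR adjusted p = 7.95e-09). JAG2, the second Jagged ligand, went the other way: 113 to 139 CPM in BT483 and 42.2 to 50.6 CPM in the T47D-TamR siRNA libraries, a log2 fold change of 1.39 (SE 0.11, edgeR adjusted p = 4.63e-07). LFNG was also higher in BT483, at 33.9 to 69.8 CPM against 9.85 to 15.7 CPM in the T47D-TamR siRNA libraries, with a log2 fold change of 1.97 (SE 0.14, edgeR adjusted p = 1.79e-07). The Delta ligand DLL1 had 29 counts over the 4 BT483 libraries and 4 over the 4 T47D-TamR siRNA libraries, a ratio of 8.42 with an exact 95% counting interval of 2.96 to 33.0. DLL1 lies across from FAM120B on the opposite strand, which had 385 to 1677 counts a library, and no source used here gives the strand setting of the counting.

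The target genes split. HES1, a bHLH repressor, was lower in BT483 at 20.1 to 30.8 CPM against 42.7 to 48.6 CPM in the T47D-TamR siRNA libraries, without overlap (log2 fold change -0.85, SE 0.13, edgeR adjusted p = 8.79e-05). HES4, its relative, was lower by a smaller step, at 27.0 to 35.3 CPM in BT483 against 39.5 to 49.0 CPM in those of T47D-TamR (log2 fold change -0.55, SE 0.13, edgeR adjusted p = 0.00318), and this call was lost in limma on the deposited normalized log2 TPM (-0.20, adjusted p = 0.142). HEY1, a repressor related to the HES proteins, had 596 counts over the BT483 libraries and 9 over the T47D-TamR siRNA libraries. The ratio was 76.9, with an exact 95% counting interval of 40.2 to 169. Within BT483 it measured 10.2 CPM with tamoxifen, 2.45 CPM with siNLK type 2, 11.5 CPM with siNLK type 1 and 4.70 CPM with siCtrl.

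**Figure D2:**
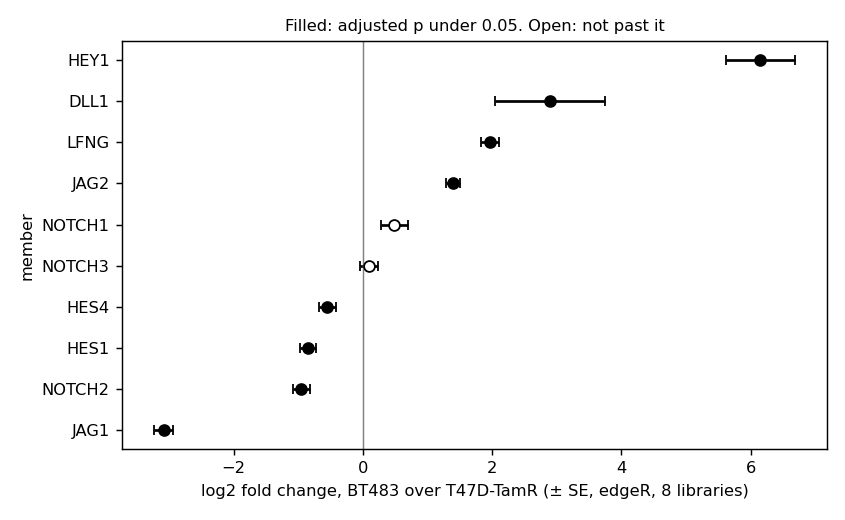
Log2 fold change of each member, BT483 over T47D-TamR, with its standard error, from the edgeR fit of the 8 siRNA libraries; filled points passed an adjusted p of 0.05. HEY1 is farthest to the right at 6.15 and JAG1 farthest to the left at -3.08, and the open points are NOTCH1 and NOTCH3.

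The other genes of the pathway were counted in 3 lists, against the background of 35.6% of all genes higher and 35.1% lower in BT483. Of 26 genes of the processing, nuclear and regulatory machinery, 13 were higher and 6 lower in BT483. Of 9 other receptors, ligands and modifiers tested, 3 were higher and 3 lower. Of 14 other targets and HES or HEY relatives tested, 10 were higher and 3 lower. The last list also holds HES6 and TLE1 to TLE4, so a gene in it need not be a Notch target. RBPJ, the DNA-binding partner of the receptor, was higher by 1.52 (SE 0.11, edgeR adjusted p = 2.57e-07), while its cofactor SNW1 was lower, with a log2 fold change of -1.78. In the list of other targets and relatives, HES6 had the most negative log2 fold change (-1.80). The inhibitory ligand DLL3, HEY2 and the ubiquitin ligase NEURL1 had at most 4, 6 and 4 counts in any T47D-TamR library, so, like HEY1 and DLL1, they entered the test only through BT483 and had to differ. Other genes in these counts, such as MFNG and TLE4, were also low in T47D-TamR.

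Tamoxifen was compared with its own control in 3 pairs, and no member passed in the edgeR test over all of them, where 0.0416% of 24023 genes did. At an unadjusted p under 0.05 the members gave 0 calls there, where 1590 of the 24023 genes were under it. DESeq2 and limma also gave 0 members, where 1272 of 41317 and 1392 of 18725 genes were under it. HES1 came nearest in that edgeR test, with an unadjusted p of 0.0503. Under RLE factors, at least 10 counts in every library or no filter, edgeR gave 1 member at an unadjusted p under 0.05. Of all genes 1594 of 24023, 1207 of 14670 and 2303 of 41317 were under it in the same order. In BT483 alone, NOTCH1 was at 83.5 CPM with tamoxifen, against 186 CPM in siCtrl, 0.449 of the control with an exact 95% counting interval of 0.425 to 0.474. In TMM-scaled CPM it was the lowest of the 11 libraries for NOTCH1, next to T47D-TamR siCtrl at 84.4 CPM. By TPM the lowest was T47D-TamR siCtrl at 21.0 TPM. BT483 with tamoxifen was at 22.5 TPM, against 53.0 TPM in BT483 siCtrl. The log2 fold change was -1.18 (SE 0.30) and missed the threshold in edgeR (adjusted p = 0.0961), where 1.49% of all genes passed in either direction and 1.40% of all genes passed as lower. Without the T47D-TamR siNLK type 1 library the adjusted p was 0.00832, without the siNLK type 2 library 0.00822, and in DESeq2 0.0256. Leaving out either siNLK library takes the same T47D-TamR pair out of the shared spread, so those omissions are not separate results. The range of the adjusted p over the alternatives was 7.14e-05 to 0.2565. An antisense transcript overlaps NOTCH1 with 17 to 61 counts a library.

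In T47D-TamR, NOTCH1 was at 101 CPM with siCtrl and tamoxifen against 84.4 CPM with siCtrl, and at 85.6 CPM with DMSO and tamoxifen against 94.1 CPM with DMSO. The pairs went opposite ways, and 0 members passed there, against 0.221% of all genes. The difference between the lines in the response of NOTCH1, -1.28 (SE 0.36), did not pass in edgeR (adjusted p = 0.214), where 0.691% of all genes did; it passed without the T47D-TamR siNLK type 1 library (adjusted p = 0.0295), without the siNLK type 2 library (adjusted p = 0.0290) and without a filter on low counts (adjusted p = 0.00214), in a range up to 1.00.

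HES1 was higher in the same BT483 pair, at 30.8 CPM with tamoxifen against 20.1 CPM in siCtrl, with a log2 fold change of 0.59 (SE 0.23, edgeR adjusted p = 0.430). The siCtrl library was the lowest of the 4 BT483 libraries for HES1, and both knockdown libraries, at 27.7 and 25.6 CPM, lay between. In the list of other targets and HES or HEY relatives, 3 of 15 passed as lower with tamoxifen in BT483, against 1.40% of all genes. MYC was at 19.9 CPM with tamoxifen against 70.9 CPM in siCtrl (log2 fold change -1.85, SE 0.29, edgeR adjusted p = 0.00321), and the cyclin gene CCND1 at 240.5 against 501 CPM (-1.08, SE 0.21, edgeR adjusted p = 0.0173). HEY2, a HEY1 relative, had 11 counts against 80 (-3.45, SE 0.73, edgeR adjusted p = 0.0304). The MYC call was lost in limma on the deposited normalized log2 TPM (adjusted p = 0.0754). Those of CCND1 and HEY2 were lost on leaving out any 1 of the T47D-TamR siCtrl, siCtrl + tamoxifen, DMSO or DMSO + tamoxifen libraries, with adjusted p up to 0.118 for CCND1 and 0.0940 for HEY2. Over all edgeR, DESeq2 and limma alternatives the adjusted p of CCND1 reached 0.142. MYC and CCND1 are known estrogen-responsive genes as well as Notch targets. NRARP, a feedback inhibitor of Notch, was at 19.9 CPM with tamoxifen against 41.0 CPM (-1.06, SE 0.27, edgeR adjusted p = 0.0840).

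**Figure D3:**
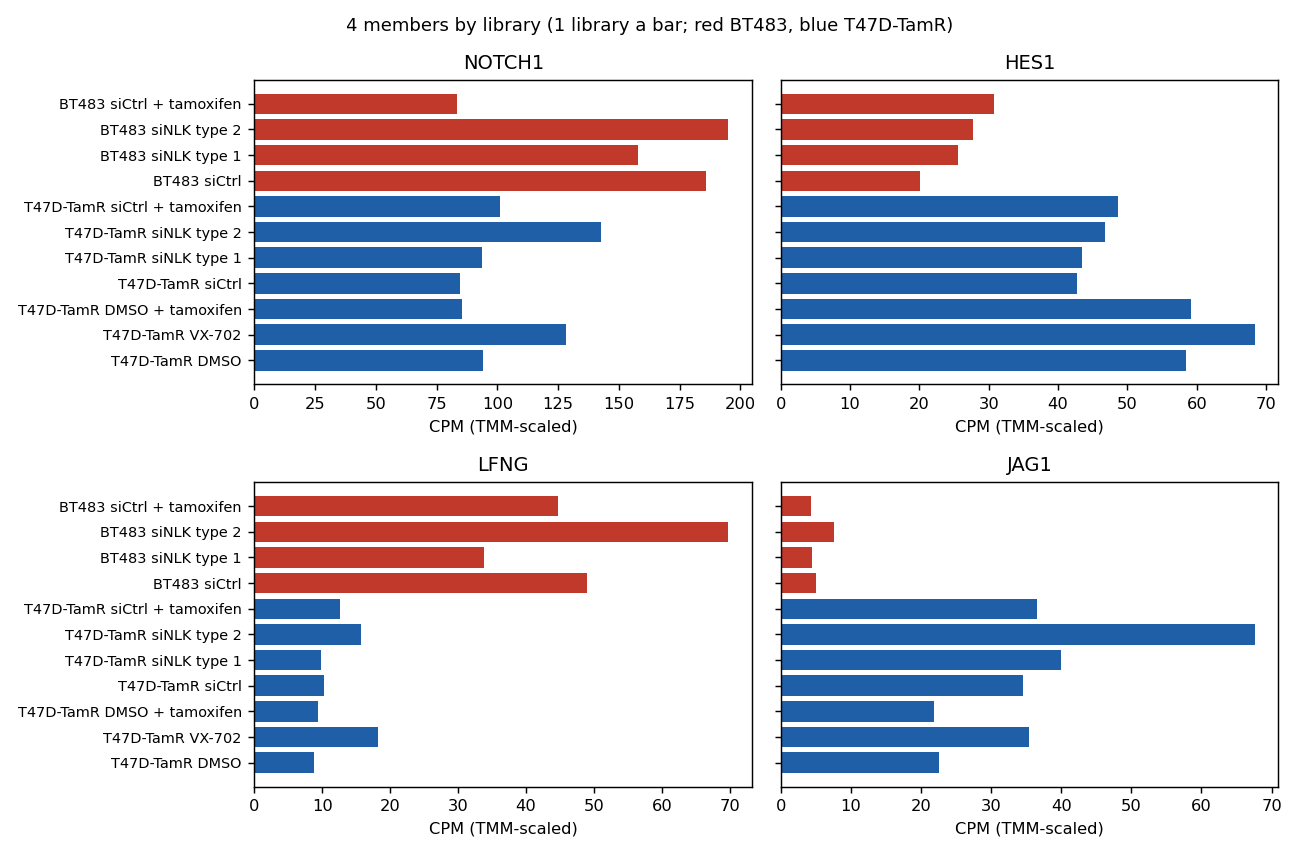
NOTCH1, HES1, LFNG and JAG1 in TMM-scaled CPM, with 1 bar for each of the 11 libraries, treated above control within a line. The BT483 tamoxifen bar of NOTCH1, at 83.5 CPM, is the shortest of its panel, and the siNLK type 2 bars of LFNG and JAG1 are longer than the siNLK type 1 bars in both lines.

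Knockdown of NLK moved no member past the threshold. Over both lines 1 gene passed in edgeR, NLK itself, which is 0.00416% of those tested. In that test 1 of 10 members had an unadjusted p under 0.05, where 1331 of all 24023 genes had. In BT483 the 1 gene called was again NLK (0.00416%), which was set as the check of the knockdown. In T47D-TamR it was the histone pseudogene H2AFZP3 (0.00416%), named after its value was seen. The test of a difference between the lines called 0.00% of genes in edgeR and 0 genes in DESeq2. At an unadjusted p under 0.05 it had 735 of 24023 genes in edgeR and 350 of 41317 in DESeq2. JAG1 had the lowest p of the members, with a log2 fold change of 0.50 (SE 0.22, edgeR adjusted p = 0.880). Relative to siCtrl it was 1.52 times as high with siNLK type 2 and 0.898 times with type 1 in BT483, and 1.96 and 1.16 times in T47D-TamR. HES1 was 1.38 and 1.27 times siCtrl with types 2 and 1 in BT483 and 1.10 and 1.02 times in T47D-TamR. RBPJ had a log2 fold change of -0.40 (SE 0.12, edgeR adjusted p = 0.880) and was below its siCtrl in all 4 knockdown libraries. RBPJ was not lower with knockdown alone. With siCtrl and tamoxifen it was at 100 against 125 CPM in BT483 and 32.95 against 46.8 CPM in T47D-TamR. In the DMSO arm it was at 43.1 CPM with tamoxifen and 35.5 CPM with VX-702, against 49.4 CPM with DMSO. The largest other log2 fold changes of the machinery were those of the ligand-activating ubiquitin ligase MIB1 (-0.44) and the coactivator MAML2 (-0.40). In the list of other targets and relatives it was that of HES2 (0.49). MIB1, MAML2 and HES2 did not pass in edgeR (adjusted p = 0.880 each).

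The type 2 and type 1 siRNAs against NLK were compared with each other, with the lines as replicates. LFNG was at 69.8 CPM with siNLK type 2 against 33.9 CPM with type 1 in BT483, and at 15.7 against 9.85 CPM in T47D-TamR. Its ratio of type 2 to type 1 was 2.06 (1.87 to 2.28) in BT483 and 1.60 (1.36 to 1.89) in T47D-TamR, with exact 95% counting intervals. JAG1 had ratios of 1.69 (1.28 to 2.25) and 1.69 (1.56 to 1.83) in BT483 and T47D-TamR. Across both lines the log2 difference was 0.86 for LFNG (SE 0.18, edgeR adjusted p = 0.0526) and 0.75 for JAG1 (SE 0.17, edgeR adjusted p = 0.0817). Neither passed, where 0.470% of all genes did. DESeq2 called both (adjusted p = 0.00533 and 0.0254). Both also passed without the BT483 siCtrl library (0.0297 for LFNG and 0.0489 for JAG1) and without the BT483 siCtrl + tamoxifen library (0.0141 and 0.0294), and LFNG without the T47D-TamR siCtrl + tamoxifen library (0.0440). The range of adjusted p over the alternatives was 0.00533 to 0.453 for LFNG and 0.0254 to 0.544 for JAG1.

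HEY1 had 66 counts with siNLK type 2 against 178 with type 1 in BT483, while T47D-TamR had 4 counts with each. Its log2 difference of -1.98 (SE 0.88, edgeR adjusted p = 0.559) rests on BT483 and became 0.84 without the BT483 siNLK type 2 library. Of the other pathway genes SOX9, a progenitor factor, passed: 19.6 against 6.61 CPM in BT483 and 26.2 against 9.92 CPM in T47D-TamR (log2 difference 1.49, SE 0.20, edgeR adjusted p = 0.00631). In the machinery NEURL1 (0.94, edgeR adjusted p = 0.185) and MIB1 (0.71, edgeR adjusted p = 0.109) did not pass. The SOX9 call was lost without the BT483 siNLK type 1 (adjusted p = 0.107), BT483 siNLK type 2 (0.0570) or T47D-TamR siNLK type 1 library (0.2198). In BT483 the type 2 library had 25728513 counts and the type 1 library 14637083, the shallowest of all. The summed basal markers were higher with type 2 than with type 1, 16.4 against 9.99 CPM in BT483 and 87.0 against 66.1 CPM in T47D-TamR. KRT17 alone gave 10.6 against 2.59 CPM in BT483 and 67.3 against 51.5 CPM in T47D-TamR. In BT483 MYLK was lower with type 2, at 5.58 against 6.81 CPM. There KRT5, KRT14 and TP63 had at most 7 counts in either library. TP63 was at 9.66 against 5.08 CPM in T47D-TamR. The part of these markers in the result was not tested.

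**Figure D4:**
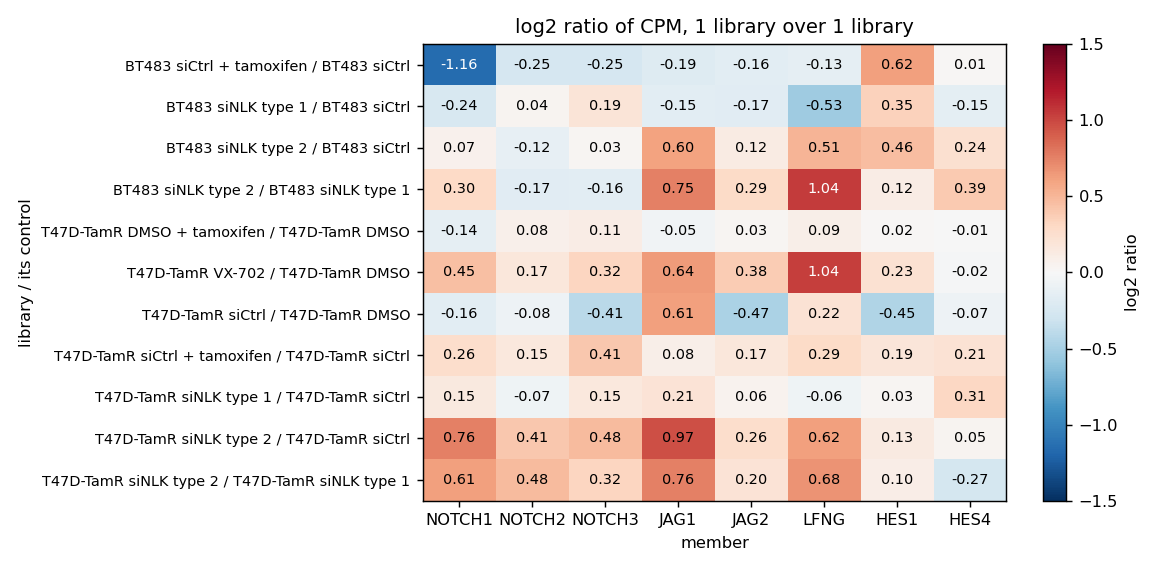
Log2 ratio of CPM for 8 members, 1 library over 1 library, with the pair named at the left; HEY1 and DLL1 are left out because they are at or near 0 in T47D-TamR. LFNG and JAG1 are positive in both pairs of siNLK type 2 over type 1, and NOTCH1 is the most negative value, for tamoxifen over siCtrl in BT483.

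VX-702 and DMSO had 1 library each and were compared by their ratio alone, and no test was run. Among the 8 members with an average of at least 5 CPM, 2 were at least 1.5-fold higher with VX-702, where 1.17% of 11738 genes were, and 5.60% were past that fold either way. LFNG was at 18.1 CPM with VX-702 against 8.82 CPM with DMSO, a ratio of 2.06 (exact 95% counting interval 1.74 to 2.43), and JAG1 at 35.4 against 22.6 CPM, a ratio of 1.56 (1.40 to 1.74). Without a TMM factor JAG1 no longer passed 1.5-fold. NOTCH1 was 1.37 times as high (1.29 to 1.44), and HES4 0.987 times (0.904 to 1.08). The 3 mural markers summed to 65.4 CPM with VX-702 against 33.6 CPM with DMSO, of which ACTA2 alone gave 65.3 and 33.5 CPM. The 9 fibroblast markers summed to 110.5 against 107.8 CPM. Of these, COL1A2, COL3A1 and VIM were at 0 with VX-702, against 9, 5 and 3 counts with DMSO. The part of these markers was not tested.

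Control siRNA against DMSO, again 1 library each with no test run, gives the scale of the difference between the T47D-TamR arms. JAG1 was at 34.6 CPM with siCtrl against 22.6 CPM with DMSO, a ratio of 1.53 (1.37 to 1.70), and was the 1 of 8 members past 1.5-fold, where 2.75% of 11766 genes were at least that much higher and 4.05% past it either way. In the deposited normalized values it was not past it. The 9 fibroblast markers summed to 70.8 CPM with siCtrl against 108 CPM with DMSO, although COL1A2 had 55 counts against 9, POSTN 48 against 10, VIM 40 against 3 and SPARC 33 against 6. The 5 basal markers summed to 50.6 against 34.8 CPM, of which KRT17 alone gave 34.9 and 16.5 CPM. MYLK (7.94 against 9.99 CPM) and KRT14 (0.722 against 1.58 CPM) were lower with siCtrl. TP63 was at 6.78 against 6.62 CPM, and KRT5 had 7 against 2 counts. The 3 mural markers summed to 43.3 against 33.6 CPM, of which ACTA2 alone gave 43.1 and 33.5 CPM. The part of all these markers was not tested. NOTCH3 (0.753), JAG2 (0.720) and HES1 (0.732) were lower with siCtrl.

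Across the 11 libraries, after centring within each line and arm, the genes most like JAG1 among 10626 were MAPRE2 (Pearson r = 0.965), TRIB1 (0.957) and IFNGR2 (0.952), and those most like HES1 were CHMP4C (0.939), PLEKHN1 (0.932) and PFN2 (0.928). Among the members, LFNG and JAG2 were the most alike (0.963), and NOTCH1 and HES1 had r = -0.265. These describe 11 libraries that share treatments and controls.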

How the data were processed

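Stranded mRNA libraries of 11 cultures were read from both ends, per the labels' protocols. The genome build was GRCh38, as the submitters' processing notes name it, while the sources used here name no aligner, annotation or counting settings. Each library has a deposited file of raw counts by gene symbol and another of log2(TPM + 1) values, and the authors added a normalized log2 TPM table of the series in which 27 gene names had turned into dates. Groups came from the sample titles, and 0 columns were left unmapped.

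Tests were run on the deposited counts with edgeR 4.0.16 in R 4.3.3 (TMM, filterByExpr, robust quasi-likelihood F test, 2-sided, Benjamini-Hochberg over all genes, threshold 0.05). Line used the 8 siRNA libraries blocked by condition; the other tests used all 11 libraries with line and arm as the block, which takes a group of 1 library to have the same spread as the rest. Biological coefficients of variation were 0.162 to 0.179. Levels are TPM between genes and TMM-scaled CPM between libraries. Ratios carry exact 95% binomial intervals, which cover counting error only. The scripts were tested on simulated data. Alternatives were DESeq2 1.42.0, RLE factors, other filters, limma 3.58.1 on the deposited normalized log2 TPM and leaving out each library.

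All 10 members are named. From 3 lists of other pathway genes, those called in a comparison were eligible, otherwise the 3 with the largest log2 fold change at an average log2 CPM of at least 1; not every eligible gene is given. The members and lists were chosen with earlier results of these data known.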

Additional observations from a re-analysis of the deposited data

Results flagged for a closer look

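The test of the difference between the lines in the response to tamoxifen passed its threshold for 0.691% of all genes. It also passed for 2 of 15 genes in the list of other targets and HES or HEY relatives. For MYC the log2 difference, BT483 minus T47D-TamR, was -2.02 (SE 0.36, edgeR adjusted p = 0.0134): 19.9 CPM with tamoxifen against 70.9 CPM in BT483 siCtrl, and 10.3 against 7.90 CPM and 7.75 against 8.57 CPM in the T47D-TamR siCtrl and DMSO pairs. For CCND1 it was -1.30 (SE 0.26, edgeR adjusted p = 0.0321): 240.5 against 501 CPM in BT483, and 91.8 against 80.4 CPM and 72.6 against 65.4 CPM in T47D-TamR. BT483 gave 1 pair and T47D-TamR 2. In limma on the deposited normalized log2 TPM, 1 gene in all passed for this difference, so MYC and CCND1 did not both pass there. Leaving out any 1 of the T47D-TamR siCtrl, siCtrl + tamoxifen, DMSO or DMSO + tamoxifen libraries ended both calls, with adjusted p of 0.106 to 0.405 for MYC and 0.318 to 0.624 for CCND1.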

How the results depend on the processing

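The count of members called for line was 8 and ran from 7 to 9 over the alternatives. For tamoxifen in BT483 it was 0, but 1 (NOTCH1) in DESeq2 and without a filter on low counts, and 0 to 1 over the left-out libraries. For the difference between lines in tamoxifen it was 0, but 2 (NOTCH1 and HEY1) without a filter, and 0 to 1 over the left-out libraries. For siRNA type 2 minus type 1 it was 0, but 2 (LFNG and JAG1) in DESeq2 and without a filter, and 0 to 2 over the left-out libraries. Past 1.5-fold, VX-702 against DMSO gave 1 member without TMM factors and siCtrl against DMSO 0 in the deposited normalized log2 TPM. The other member counts stayed at 0 under every alternative run. The cause of these changes was not tested.

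Among the single-gene values compared, signs turned only where the gene had not passed: over the left-out libraries NOTCH3 for line ran from -0.019 to 0.26, HES1 for knockdown from -0.036 to 0.25, NOTCH1 for knockdown from -0.014 to 0.56, NOTCH1 for tamoxifen in T47D-TamR from -0.16 to 0.32, JAG1 for knockdown between lines from -0.80 to 0.079, and HEY1 for siRNA type from -2.35 to 0.84.

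Counts over all genes moved more. DESeq2, no filter, at least 10 counts in every library, limma and the left-out libraries gave, against 1 for knockdown, 26, 249, 0, 0 and 0 to 2; against 10 for tamoxifen, 115, 513, 0, 0 and 0 to 81; against 1 for knockdown in BT483, 2, 163, 0, 0 and 0 to 149; against 1 in T47D-TamR, 5, 108, 0, 0 and 0 to 23; against 0 for its difference between lines, 0, 21, 0, 0 and 0 to 5; against 357 for tamoxifen in BT483, 479, 670, 254, 7 and 190 to 480; against 53 in T47D-TamR, 159, 354, 0, 0 and 0 to 100; against 166 for its difference between lines, 320, 502, 116, 1 and 0 to 271; against 113 for siRNA type, 341, 339, 50, 0 and 0 to 406. Knockdown in the siRNA libraries alone gave 0. The line test was blocked by condition in its main form and called 7 members without that block, in which DLL1 was not tested. No paired analysis was possible because no group has replicate numbers to share, beyond these blocks of condition, line and arm. DLL1 and HEY1 are at or near the floor in T47D-TamR, where no change could be seen at this depth.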
